A study of Mus musculus with 6 samples.

Results

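The mechanistic target of rapamycin complex 1 (mTORC1) and the proteins that tell it of amino acid supply were followed through 10 of its core genes: Mtor, Rptor and Mlst8 for the kinase complex, Rheb, Tsc1 and Tsc2 for its switch, and Rraga, Rragc, Sesn2 and Nprl2 for amino acid sensing. They were chosen by symbol, and all 10 were found among the 49584 gene identifiers of the count table. The data came from spermatocytes of the leptotene and zygotene stages, when meiotic prophase begins, sorted from mouse testes at postnatal day 12. Poly(A) RNA was amplified by Smart-seq2, which copies full-length cDNA from few cells, with 3 libraries under the label Srp68 SKO and 3 under Wild type. The SRP68 protein belongs to the signal recognition particle, which guides ribosomes to the endoplasmic reticulum when they make proteins for membranes or secretion, and the series title links its knockout to meiotic arrest. The table's headers write CKO for the knockout. The allele, the Cre driver if there was one, the strain and the number of cells or animals behind each library were not given in the sources used here.

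mTORC1 is a protein kinase complex on the lysosome surface that promotes protein synthesis and restrains autophagy. The GTPase Rheb switches the kinase on, and the complex of TSC1 and TSC2 keeps Rheb off when growth signals are missing. Amino acids act through the Rag GTPases, pairs of RagA or RagB with RagC or RagD, which bring mTORC1 to the lysosome. The GATOR1 complex, of which NPRL2 is a subunit, turns RagA and RagB off, and the GATOR2 complex restrains GATOR1. Sestrin2, the product of Sesn2, binds leucine and holds GATOR2 back when leucine is scarce, and its gene is a known target of the stress factors ATF4 and p53. In the mouse testis mTORC1 is known above all for its part in the differentiation of spermatogonia.

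In Srp68 SKO spermatocytes 2 of the 10 genes rose, Sesn2 and Rheb, and 3 fell, Rraga, Rragc and Nprl2. The 5 others, Mtor, Rptor, Mlst8, Tsc1 and Tsc2, did not pass the test. The test was edgeR's quasi-likelihood test over all 13474 genes with enough counts, and a gene was called where its Benjamini-Hochberg adjusted p was under 0.05. Of all tested genes 14.1% rose and 14.4% fell, so 2 and 3 calls among 10 genes are not a result about the set as a whole. Its median log2 fold change (SKO over wild type) was −0.33, against −0.03 over all tested genes. The SKO and wild type libraries did not overlap for 6 of the 10 genes, against 43.8% of all tested genes. All 10 genes passed the filter on low counts. Whether replicates were separate animals is not in the labels, so p-values measure the spread between these libraries, which may be technical. In bulk libraries, fewer cells of a type and less RNA per cell cannot be told apart.

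The promoters of the 5 genes that rose or fell are shown because their sequence can be set beside their direction. All 10 genes matched the RefSeq promoter table (GRCm38.p6), and each window holds 250 bases before and 50 after an annotated start, written 5′ to 3′ on the gene's own strand. Both strands were searched for TGATGNAA, the C/EBP-ATF response element bound by ATF4 with its partners, for TGACGTCA, the cAMP response element, and for CACGTG, the E-box core recognised by TFEB and other factors. Capitals mark the matches.
Sesn2, chr4:132510407-132510706, minus strand: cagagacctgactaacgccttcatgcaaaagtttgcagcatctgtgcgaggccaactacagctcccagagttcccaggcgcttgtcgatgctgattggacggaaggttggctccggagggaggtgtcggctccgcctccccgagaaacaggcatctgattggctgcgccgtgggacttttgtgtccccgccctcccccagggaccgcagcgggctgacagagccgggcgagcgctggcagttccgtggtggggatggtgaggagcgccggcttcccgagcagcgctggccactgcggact
Nprl2, chr9:107541959-107542258, plus strand: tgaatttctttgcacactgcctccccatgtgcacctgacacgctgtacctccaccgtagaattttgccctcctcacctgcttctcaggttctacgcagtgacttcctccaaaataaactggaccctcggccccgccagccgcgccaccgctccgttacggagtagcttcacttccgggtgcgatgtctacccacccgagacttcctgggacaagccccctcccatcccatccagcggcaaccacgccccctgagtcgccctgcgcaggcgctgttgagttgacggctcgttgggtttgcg
Rraga, chr4:86575423-86575722, plus strand: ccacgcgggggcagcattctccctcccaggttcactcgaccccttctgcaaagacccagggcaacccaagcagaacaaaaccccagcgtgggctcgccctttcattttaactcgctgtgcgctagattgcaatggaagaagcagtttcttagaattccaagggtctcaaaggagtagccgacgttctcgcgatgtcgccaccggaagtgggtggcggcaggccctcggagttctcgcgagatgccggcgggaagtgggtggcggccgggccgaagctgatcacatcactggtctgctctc
Rragc, chr4:123917183-123917482, plus strand: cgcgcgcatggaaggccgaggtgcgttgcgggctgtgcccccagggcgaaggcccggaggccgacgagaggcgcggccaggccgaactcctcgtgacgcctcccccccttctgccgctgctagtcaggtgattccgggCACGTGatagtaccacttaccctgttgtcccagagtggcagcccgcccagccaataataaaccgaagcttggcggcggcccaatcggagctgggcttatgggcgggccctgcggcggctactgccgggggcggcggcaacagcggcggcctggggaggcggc
Rheb, chr5:24842312-24842611, minus strand: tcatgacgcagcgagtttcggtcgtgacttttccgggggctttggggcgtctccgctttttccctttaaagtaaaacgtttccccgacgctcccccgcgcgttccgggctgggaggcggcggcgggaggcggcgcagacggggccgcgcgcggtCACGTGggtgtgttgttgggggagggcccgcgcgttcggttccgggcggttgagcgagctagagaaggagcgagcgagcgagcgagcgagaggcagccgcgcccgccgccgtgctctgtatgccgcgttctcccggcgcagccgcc
No match to TGATGNAA or TGACGTCA lay in any of the 10 windows, the window of Sesn2 included, where 3.97% and 1.79% of the 32851 windows in the table held one. CACGTG was in 2 of the 10 windows, those of Rheb, which rose, and Rragc, which fell, against 7.15% of all windows. A match is a description of these letters only.

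Srp68 itself, the targeted gene, had 147, 70 and 72 counts in SKO replicates 1 to 3 and 337, 505 and 345 in wild type replicates 1 to 3, so every SKO library was below every wild type library (log2 fold change −1.52 with SE 0.28, edgeR adjusted p = 0.00107). The exons removed were not given in the sources used here. Total counts were 11.9 to 12.7 M in SKO and 14.3 to 15.4 M in wild type libraries, and 3 counts stood for 0.174 to 0.289 CPM. The 8 leptotene and zygotene markers, Sycp3 and Dmc1 among them, were all detected and summed to 23800 to 31600 CPM in SKO and 14400 to 18100 CPM in wild type libraries. Of the 8, 6 rose, against 14.1% of all tested genes. The sum was held mostly by Sycp3, Sycp1, Hormad1 and Sycp2, whose transcripts held 34.3% to 36.4% G and C. Among tested genes under 45% G and C, 25.2% were higher. Of the Sycp3 exon length, 52.2% overlaps Chpt1. Pachytene markers, of the next stage, summed to 322 to 399 CPM in SKO and 356 to 488 CPM in wild type libraries, a sum held mostly by Hspa2 (log2 fold change 0.08, edgeR adjusted p = 0.717). Of the 5 tested, 3 fell, Ldhc (log2 fold change −2.13), Clgn (−1.68) and Piwil1 (−2.0), with edgeR adjusted p of 9.95e-06, 5.89e-05 and 0.00697, and Mybl1 rose (0.47; 0.0299). Markers of differentiating spermatogonia summed to 622 to 677 and 358 to 494 CPM. Of these 5 only Rhox13 was called (513 ± 28.5 and 283 ± 58.9 CPM, SD, n = 3 each), while Kit, Dmrt1, Dmrtb1 and Sohlh1 did not pass (log2 fold changes 0.24, −0.08, −0.40 and −0.68). Markers of undifferentiated spermatogonia summed to 6.45 to 10.2 and 6.29 to 11.9 CPM, and those of spermatids to 12.8 to 18.1 and 18.2 to 28.4 CPM, with Prm2 and Tnp2 at 0. Of the 2 spermatid markers tested, Spaca1 fell (12.1 and 21.3 CPM in SKO and wild type cells; log2 fold change −0.82, edgeR adjusted p = 0.0306). The other, Tnp1, rose from a low level (2.88 and 0.343 CPM; 3.02; 0.0277). Among somatic lists, Sertoli markers summed to 8.93 to 28.3 CPM in SKO and 11.1 to 16 CPM in wild type libraries, Leydig markers to 4.94 to 9.87 and 0.58 to 6.6 CPM (Cyp17a1 and Cyp11a1 at 0), and myoid markers to 4.61 to 13.3 and 1.04 to 2.36 CPM (Des at 0). Macrophage markers summed to 1.49 to 32.2 and 1.8 to 2.77 CPM, with the top in SKO replicate 3, endothelial markers to 0.77 to 1.86 and 0.516 to 1.57 CPM (Emcn at 0), and erythroid markers to 37.1 to 148 and 2.77 to 137 CPM (Alas2 at 0). Only Acta2 of the myoid list was tested, and it rose (6.85 and 1.44 CPM in SKO and wild type cells; log2 fold change 2.25, edgeR adjusted p = 0.00763). Only Lyz2 of the macrophage list was tested, and it rose with overlap between the groups (3.35; 0.0454). The part of these cell types and of the stage markers in the results was not tested.

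Sesn2, the leucine sensor that signals scarcity, was higher in every SKO library. Sesn2 (ENSMUSG00000028893; GRCm38 chr4:132492032-132510501, minus strand) had 59, 58 and 48 counts in SKO replicates 1 to 3 and 32, 30 and 27 in wild type replicates 1 to 3. Scaled for depth, that was 4.86, 5.40 and 4.62 CPM in SKO libraries, against 2.06, 1.74 and 1.77 CPM in wild type libraries. The groups did not overlap, and the spread within each was small beside the gap: 4.96 ± 0.399 CPM in SKO and 1.86 ± 0.179 CPM in wild type cells (SD, n = 3 each), a 2.67-fold difference. The log2 fold change was 1.41 (SE 0.45; 95% interval 0.44 to 2.38, edgeR adjusted p = 0.0306), which placed Sesn2 at percentile 96.2 of all tested genes. At these depths counting error alone was wide, with exact Poisson 95% intervals of 35.4 to 63.6 counts for the lowest SKO library and 21.9 to 45.2 for the highest wild type library. The direction held under all 15 alternatives that kept the gene, with log2 fold changes from 1.15 to 2.11, but the call was lost under 8 of them, among them leaving out any library except wild type replicate 1 (largest adjusted p = 0.101, without SKO replicate 2). With a correction for GC content and length, it was 2.11 (adjusted p = 0.00416).

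Neither of the other sestrin genes passed the test. Sesn1 was at 15.3 ± 2.37 CPM in SKO and 16.8 ± 6.98 CPM in wild type cells (log2 fold change −0.14, edgeR adjusted p = 0.773), and Sesn3 at 57.1 ± 13.2 and 49.6 ± 13.3 CPM (0.20; 0.525; SD, n = 3 each); both were named after their values were seen, and their difference from Sesn2 was not tested. Per exon length Sesn2 remained the least abundant of the family, at 1.43 RPKM in SKO and 0.534 RPKM in wild type cells, against 3.83 and 4.22 RPKM for Sesn1 and 3.74 and 3.25 RPKM for Sesn3.

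Nprl2, a gene of GATOR1, the complex that turns RagA and RagB off, fell in every SKO library. Nprl2 (ENSMUSG00000010057; GRCm38 chr9:107542226-107545706, plus strand) was at 12.9, 13.0 and 6.83 CPM in SKO replicates 1 to 3, against 23.1, 30.6 and 30.2 CPM in wild type replicates 1 to 3. The highest SKO library lay well under the lowest wild type library, and SKO replicate 3 was the lowest of all. The means were 10.9 ± 3.55 and 28 ± 4.19 CPM (SD, n = 3 each), so SKO cells held 39.1% of the wild type level (log2 fold change −1.35 with SE 0.27, edgeR adjusted p = 0.00174). The call held in all 16 alternatives, with log2 fold changes between −1.61 and −1.0. Within each library, the ratio of Sesn2 to Nprl2 counts per exon length was 0.218, 0.24 and 0.392 in SKO and 0.0516, 0.0329 and 0.0339 in wild type replicates 1 to 3, a measure that needs no scaling between libraries. It was higher in every SKO library (two-sided exact permutation p = 0.1, the smallest that 3 against 3 allows; 0.133 adjusted over 8 gene pairs compared in this way).

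Both Rag GTPase genes of the set fell, Rraga steeply and Rragc by less. Rraga (ENSMUSG00000070934; GRCm38 chr4:86575668-86577285, plus strand), a gene of a single exon that encodes RagA, had 30, 24 and 13 counts in SKO replicates 1 to 3, against 129, 86 and 105 in wild type replicates 1 to 3. In CPM that was 2.47, 2.23 and 1.25 in SKO and 8.31, 4.98 and 6.88 in wild type libraries, with no overlap between the groups. SKO cells held 29.5% of the wild type level (1.98 ± 0.646 and 6.72 ± 1.67 CPM, SD, n = 3 each; log2 fold change −1.75 with SE 0.44, edgeR adjusted p = 0.00875). The call held in all 16 alternatives, with log2 fold changes between −2.0 and −1.51, the largest change of the 5 called genes in the main test.

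Rragc, which encodes RagC, the partner that completes the pair, was more abundant and moved less. Rragc (ENSMUSG00000028646; GRCm38 chr4:123917446-123936997, plus strand) was at 33.5, 30.7 and 42.1 CPM in SKO replicates 1 to 3 and at 52.3, 49.6 and 46.3 CPM in wild type replicates 1 to 3. The groups did not overlap, although SKO replicate 3 came close to wild type replicate 3. SKO cells held 71.8% of the wild type level (35.5 ± 5.96 and 49.4 ± 3.02 CPM, SD, n = 3 each; log2 fold change −0.48, SE 0.17, edgeR adjusted p = 0.0455). This call sat at the threshold and was lost under 9 of 16 alternatives, among them DESeq2 size factors (adjusted p = 0.0528), upper-quartile scaling (0.0626), the GC content and length correction (log2 fold change −0.39; 0.103) and leaving out any library except SKO replicate 3 (up to 0.187, without SKO replicate 2), always with the same direction. Of its exon length, 7.9% overlaps a gene on the opposite strand, whose reads could not be told apart. The ratio of Rraga to Rragc per exon length was 0.152, 0.15 and 0.0613 in SKO and 0.328, 0.207 and 0.307 in wild type libraries (exact permutation p = 0.1; 0.133 adjusted over the 8 pairs), with every SKO library below every wild type library.

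Rheb, the GTPase that activates mTORC1, was the most abundant of the 10 genes and rose modestly. Rheb (ENSMUSG00000028945; GRCm38 chr5:24802823-24842624, minus strand) was at 668, 773 and 957 CPM in SKO replicates 1 to 3, against 603, 580 and 618 CPM in wild type replicates 1 to 3. Every SKO library was above every wild type library, by little for SKO replicate 1 and by most for SKO replicate 3. The means were 799 ± 146 and 600 ± 19.0 CPM (SD, n = 3 each; log2 fold change 0.41, SE 0.12, edgeR adjusted p = 0.0182). When library totals replaced TMM scaling, which moved the median of all tested genes to −0.29, Rheb stood at 0.14 (adjusted p = 0.299), or 0.43 above that median, against 0.44 above it in the main test. The call was also lost after the GC content and length correction (0.29; 0.0813) and without SKO replicate 2 (0.0518) or 3 (0.101) or wild type replicate 1 (0.0598) or 2 (0.0665).

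**Figure D1:**
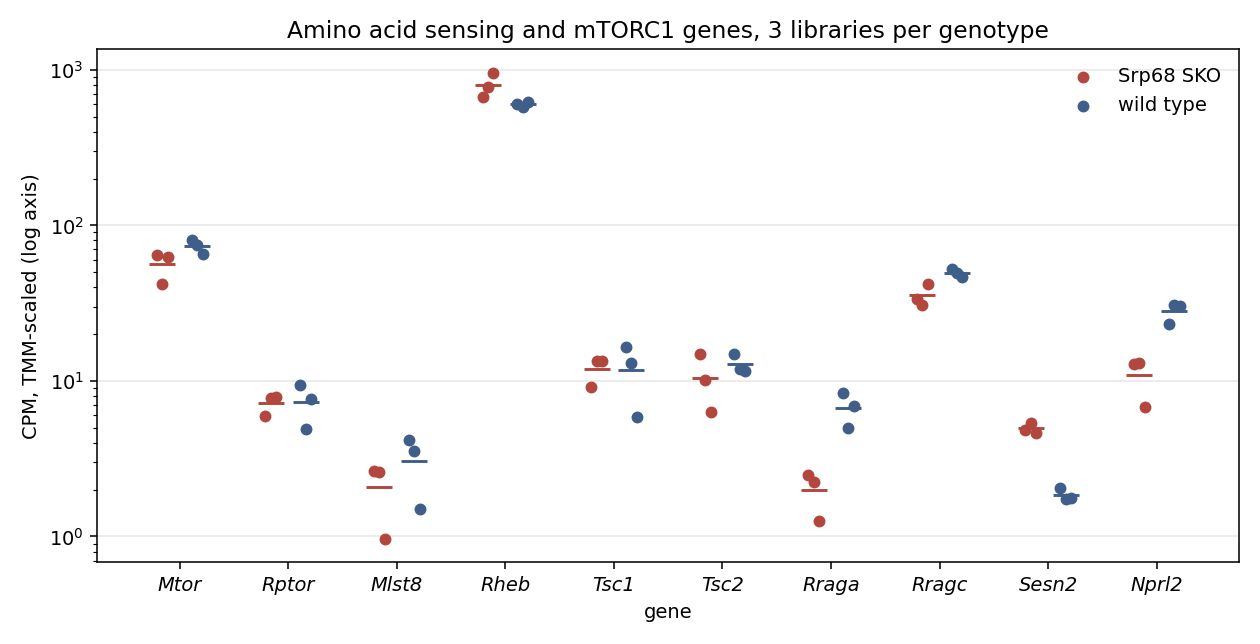
TMM-scaled CPM on a log axis for the 10 genes, with Srp68 SKO libraries in red to the left and wild type libraries in blue to the right; each point is a library (n = 3 per genotype) and each line a mean. The groups do not overlap for Mtor, Rheb, Rraga, Rragc, Sesn2 and Nprl2, and Sesn2 and Rheb are the ones higher in SKO.

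The genes of the kinase complex were lower or level in SKO means, and none passed. Mtor, the kinase itself, was at 64.8, 41.9 and 62.9 CPM in SKO replicates 1 to 3, against 80.2, 74.9 and 65.3 CPM in wild type replicates 1 to 3. The groups did not overlap, but SKO replicate 1 and wild type replicate 3 nearly met, and the difference missed the threshold (56.5 ± 12.7 and 73.5 ± 7.54 CPM, SD, n = 3 each; log2 fold change −0.38, 95% interval −0.75 to −0.01, edgeR adjusted p = 0.121). Of 16 alternatives, it passed only with library totals (−0.64; 0.0165). Relative to the median of all tested genes, Mtor stood at −0.35 there, as in the main test. Its log2 fold change was −0.17 (adjusted p = 0.516) with the GC content and length correction and −0.21 (0.438) without SKO replicate 2. Rptor, whose product raptor presents substrates to the kinase, was at 5.93, 7.82 and 7.89 CPM in SKO and 9.47, 4.92 and 7.6 CPM in wild type libraries. These values were interleaved, and the interval of the log2 fold change, −0.76 to 0.71, leaves room for changes in either direction (edgeR adjusted p = 0.970), whose sign also turned under 8 of 16 alternatives. Mlst8, which encodes a subunit bound to the kinase domain, had 32, 28 and 10 counts in SKO and 65, 61 and 23 in wild type libraries. Replicate 3 was the lowest of each genotype, the groups overlapped, and the interval was wide (log2 fold change −0.57, −1.87 to 0.73, edgeR adjusted p = 0.528). Of the Mlst8 exon length, 22.5% overlaps Bricd5 on the other strand, which makes these counts uncertain.

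The Rheb inhibitors did not pass either. Tsc1 was at 9.13, 13.4 and 13.4 CPM in SKO, against 16.5, 13.1 and 5.83 CPM in wild type libraries, which spread around the SKO values (log2 fold change 0.02, 95% interval −0.73 to 0.77, edgeR adjusted p = 0.978; −0.26 with library totals). Tsc2, the subunit that acts on Rheb, was at 15, 10.2 and 6.35 CPM in SKO and 15, 12 and 11.5 CPM in wild type libraries. SKO replicate 1 matched the highest wild type library while SKO replicate 3 was the lowest of all (log2 fold change −0.29, 95% interval −0.96 to 0.39, edgeR adjusted p = 0.544). The ratio of Tsc1 to Tsc2 per exon length was 0.496, 1.06 and 1.71 in SKO and 0.893, 0.883 and 0.411 in wild type libraries, with overlap (exact permutation p = 0.4).

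**Figure D2:**
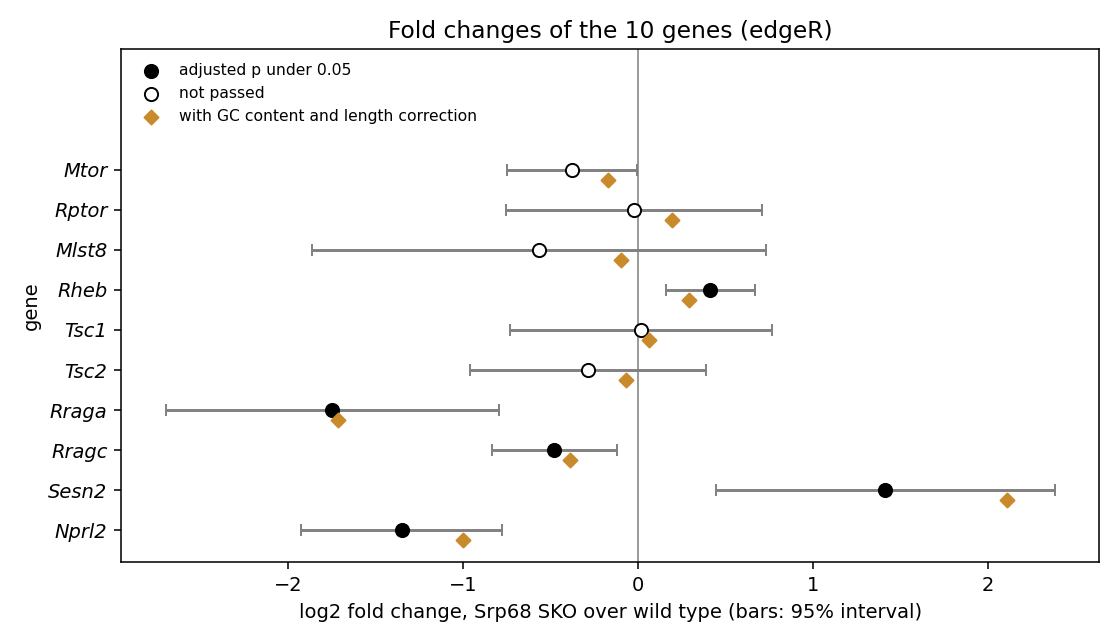
Log2 fold change of Srp68 SKO over wild type for the 10 genes (circles, filled where the adjusted p was under 0.05; bars, 95% interval) and the value after the GC content and length correction (diamonds). Sesn2 lies at 1.41, Rraga at −1.75 and Nprl2 at −1.35, and the intervals of Rptor, Mlst8, Tsc1 and Tsc2 span 0.

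Per exon length, the 10 genes kept much of their order between genotypes. RPKM here is TMM-scaled CPM per kilobase of annotated exon. In SKO cells Rheb led at 104 RPKM, followed by Rragc (10.6), Mtor (5.59), Nprl2 (5.43), Sesn2 (1.43), Rraga (1.23), Tsc2 (1.09), Tsc1 (1.01), Rptor (0.535) and Mlst8 (0.466). In wild type cells the order was Rheb (77.8 RPKM), Rragc (14.8), Nprl2 (13.9), Mtor (7.27), Rraga (4.16), Tsc2 (1.34), Tsc1 (0.998), Mlst8 (0.694), Rptor (0.544) and Sesn2 (0.534). Sesn2 thus stood at the fifth place in SKO and at the tenth in wild type cells. The libraries of neighbours overlapped between Mtor and Nprl2, from Sesn2 down to Tsc1, and between Rptor and Mlst8 in SKO cells, and between Rragc and Nprl2 and from Tsc2 down to Sesn2 in wild type cells, so those neighbours did not differ beyond their spread. The ratio of Rheb to Mtor per exon length was 13.5, 24.2 and 19.9 in SKO and 9.84, 10.1 and 12.4 in wild type libraries. Its exact permutation p was 0.1 (0.133 adjusted over the 8 pairs). With Rheb higher and Mtor lower in every SKO library, this ratio could not overlap, so its p adds no support. That of Rptor to Mtor overlapped at 0.0687, 0.14 and 0.0941 in SKO and 0.0887, 0.0493 and 0.0873 in wild type libraries (exact permutation p = 0.4).

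**Figure D3:**
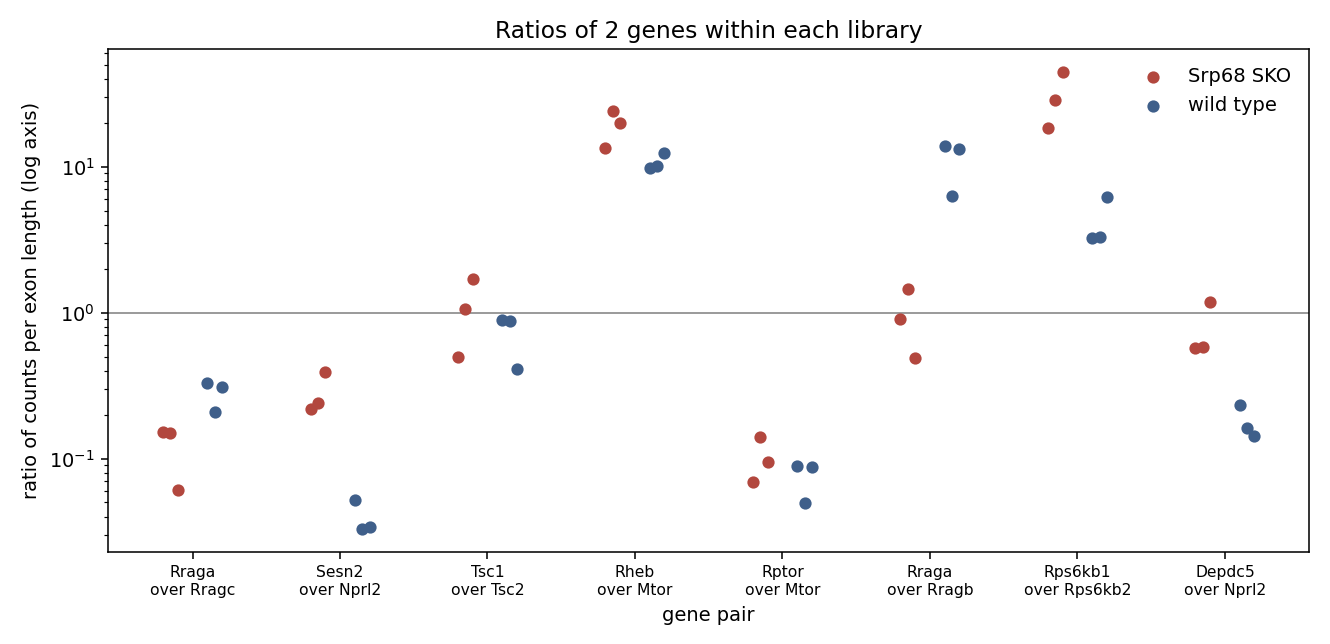
Ratios of counts per exon length for 8 gene pairs within each library, on a log axis, with Srp68 SKO libraries in red to the left and wild type libraries in blue to the right. The Sesn2 to Nprl2 ratio lies between 0.218 and 0.392 in SKO and between 0.0329 and 0.0516 in wild type libraries, while the groups overlap for Tsc1 over Tsc2 and Rptor over Mtor.

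Fold changes across the table moved with the base composition of transcripts. Among 4029 tested genes whose transcript held under 45% G and C, 25.2% were higher and 6.38% lower in SKO cells, and among 2484 with 55% or more, 5.43% were higher and 23.7% lower (median log2 fold changes 0.27 and −0.52). Rheb (44.7% G and C) lay in the first class, with the direction of most calls there. Sesn2 (58.7%) lay in the last class, against the direction of most calls there, and Rptor (56.5%) lay beside it. Nprl2 (53.3%), Mtor (54.2%), Mlst8 (54.7%), Tsc1 (51.7%) and Tsc2 (54.7%) lay between 50 and 55%, where 8.71% were higher and 19.1% lower. Rraga (48.7%) and Rragc (47.0%) lay between 45 and 50%, where both shares were 12.7%. With the trend on GC content and length removed, the log2 fold changes of Rraga and Nprl2 were −1.72 and −1.0 (edgeR adjusted p = 0.0105 and 0.00902), and the median of the 10 genes was −0.08 in place of −0.33.

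**Figure D4:**
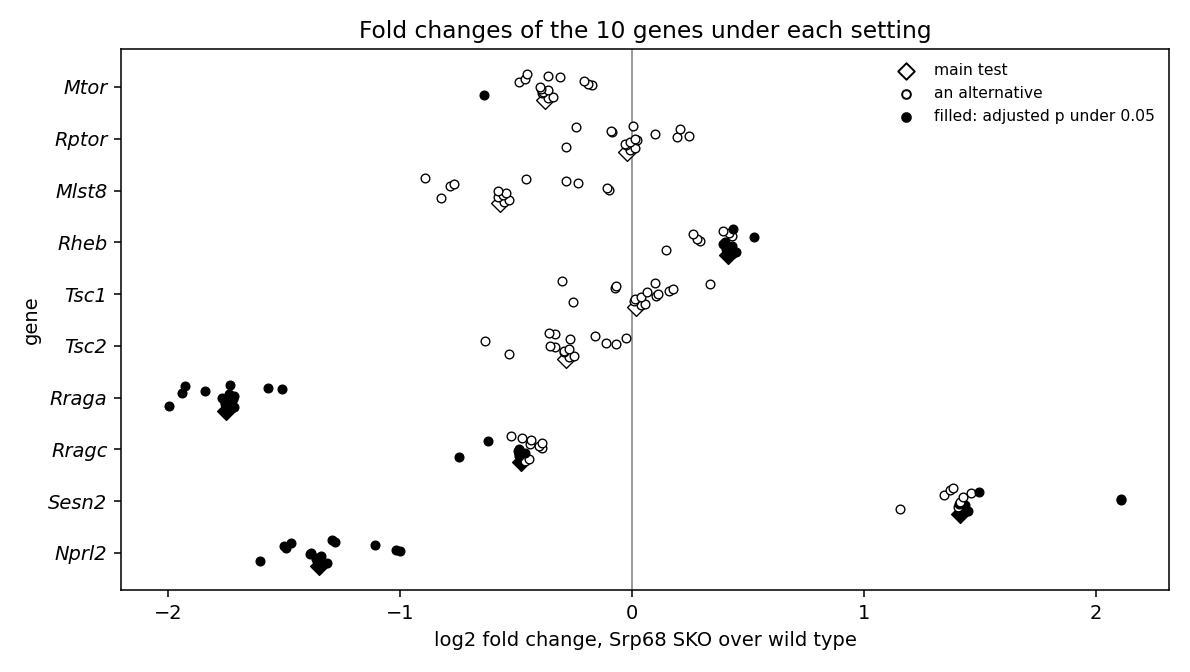
Log2 fold change of Srp68 SKO over wild type for the 10 genes in the main test (diamonds) and each alternative (circles), filled where the adjusted p was under 0.05. The points of Rraga and Nprl2 are filled throughout, while those of Rheb, Rragc and Sesn2 keep their side of 0 with filled and open points.

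The rest of the pathway, 68 genes in 8 lists, moved in both directions. Of the 65 tested, 13 were higher and 13 lower in SKO cells (20% each, against 14.1% and 14.4% of all tested genes), 39 did not pass, and the median log2 fold change was −0.13. With library totals 3 rose and 17 fell, whereas with GC content and length corrected 8 rose and 9 fell. Over all tested genes, 1010 rose and 3168 fell with library totals. Relative to the median of all tested genes, the pathway median was −0.10 there, as in the main test.

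Among partners of the kinase and of Rheb 3 genes were called, all lower, beside 14.4% called lower of all tested genes. In the list of other mTOR complex genes 2 of 7 fell: Akt1s1, which encodes the mTORC1 inhibitor PRAS40, to 1.36 ± 0.11 CPM in SKO cells, against 4.97 ± 1.91 CPM in wild type cells (log2 fold change −1.87, edgeR adjusted p = 0.0143), and Prr5, a subunit of the second complex, mTORC2, to 1.44 ± 0.751, against 5.60 ± 1.16 CPM (−1.96; 0.0106; SD, n = 3 each). Both calls were lost after the GC content and length correction (adjusted p = 0.156 and 0.123), and that of Akt1s1 also with limma-voom (0.0614) and without wild type replicate 1 (0.0717). Tbc1d7, the third subunit of the TSC complex, fell to 103 ± 11.6 CPM in SKO, against 157 ± 12.3 CPM in wild type cells (−0.61; 0.00197), and Rhebl1, the relative of Rheb, was at 2.28 and 2.98 CPM (−0.39; 0.690).

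At the lysosome, 5 of 11 genes of the other Rag GTPases, the Ragulator scaffold and folliculin rose and 1 fell. The shares over all tested genes were 14.1% and 14.4%, and the list is small. Fnip1, a folliculin partner, was at 303 ± 33.0 CPM in SKO and 170 ± 25.3 CPM in wild type cells (log2 fold change 0.83, edgeR adjusted p = 0.000247). The Ragulator subunit genes Lamtor2 (170 ± 5.48 and 123 ± 3.87 CPM; 0.47; 0.00409) and Lamtor4 (84.4 ± 1.34 and 59.4 ± 4.56 CPM; 0.51; 0.00909) rose (SD, n = 3 each), while Lamtor1, named after its values were seen, fell (88.8 ± 21.0 and 126 ± 9.55 CPM; −0.51; 0.0274), with 18.7% of its exon length over a gene of the opposite strand. Also named after their values were seen, Slc38a9, the lysosomal arginine sensor, rose (0.57; 0.0193), and so did Rragb, which encodes RagB, the alternative to RagA, from low counts of 46, 23 and 37 in SKO and 13, 19 and 11 in wild type libraries (1.82; 0.0453). With library totals, which moved the median of all tested genes to −0.29, the log2 fold changes of Lamtor2 and Lamtor4 were 0.21 and 0.24. Their calls were lost there (adjusted p = 0.167 and 0.200), as were those of Slc38a9 (0.205) and Rragb (0.0836). Lamtor2 and Lamtor4 each passed under 15 of 16 alternatives, and Rragb under 3 of the 15 that kept it. The GC content and length correction put Lamtor2 at 0.73 (adjusted p = 0.000142) and Lamtor4 at 0.81 (0.000309). With GC content and length corrected, Slc38a9 was at 0.21 (adjusted p = 0.418) and Lamtor1 at −0.31 (0.126). Slc38a9 also lost its call without SKO replicate 1 (0.102) or 2 (0.0536) or wild type replicate 2 (0.0721), and Lamtor1 without SKO replicate 2 (0.0891) or 3 (0.120) or wild type replicate 1 (0.0862) or 2 (0.0884).

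In the complexes that act on the Rag GTPases 3 genes fell and 1 rose, beside 14.4% and 14.1% of all tested genes, and the lists are small. Of 5 genes of GATOR1 and of KICSTOR, its anchor at the lysosome, Kptn fell to 5.70 ± 1.20 CPM in SKO, against 16.9 ± 5.05 CPM in wild type cells (log2 fold change −1.56, edgeR adjusted p = 0.00191), and Depdc5, the GATOR1 subunit, rose to 45 ± 2.18, against 28.5 ± 3.12 CPM (0.66; 0.00863; SD, n = 3 each; call lost with library totals, 0.103). Nprl3, the partner of Nprl2, was at 10.7 ± 2.11 and 17.9 ± 5.65 CPM and did not pass (−0.74; 0.0639; named after its values were seen), and 17.7% of its exon length overlaps Mpg. Of 5 GATOR2 genes 2 fell, Sec13, shared with the nuclear pore and COPII coats, to 102 ± 9.23, against 175 ± 24.3 CPM (−0.78; 0.00049), and Wdr59 to 7.51 ± 0.725, against 12.9 ± 2.03 CPM (−0.78; 0.0476), a call that held under 3 of 16 alternatives and was lost with DESeq2 size factors (0.0516) and on leaving out each library in turn. Of 6 other amino acid sensors, Lars, the leucyl-tRNA synthetase, rose to 128 ± 4.69 CPM in SKO, against 71.3 ± 4.22 CPM in wild type cells (0.85; 0.000129), and the other 5 did not pass.

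Upstream inputs and downstream effectors held calls in both directions, beside 14.1% called higher and 14.4% called lower of all tested genes. Of 14 tested genes of growth factor, energy and stress input 2 rose and 1 fell (14.3% and 7.14%). Neither share exceeds that of all tested genes by more than a little, so these calls are not a result about the list. Pdpk1, a kinase that activates AKT, rose (115 ± 8.21 and 79.4 ± 19.0 CPM in SKO and wild type cells; log2 fold change 0.54, edgeR adjusted p = 0.0240), and Akt2, which encodes an AKT kinase, fell (11.3 ± 2.15 and 19.9 ± 2.92 CPM; −0.81; 0.0244; SD, n = 3 each). Both calls were lost after the GC content and length correction (adjusted p = 0.115 and 0.195). That of Pdpk1 was also lost with library totals (0.231) and without SKO replicate 2 (0.0628) or 3 (0.0991) or wild type replicate 1 (0.0865), and that of Akt2 without SKO replicate 3 (0.10) or wild type replicate 1 (0.0513) or 2 (0.0990). Of 15 tested substrates and effectors 4 rose and 5 fell. Rps6, the ribosomal protein that S6 kinases phosphorylate, rose to 1250 ± 7.49 CPM in SKO, against 707 ± 41.3 CPM in wild type cells (0.83; 1.67e-05), with counts that are uncertain because ribosomal protein genes have many pseudogene copies. Maf1, a repressor of RNA polymerase III that mTORC1 inhibits, fell to 38.0 ± 8.94, against 85.3 ± 3.03 CPM (−1.16; 0.000173), and Atg13, which starts autophagy with ULK1, to 11.1 ± 1.27, against 29.9 ± 8.98 CPM (−1.44; 0.000865). Ulk1, the autophagy kinase that mTORC1 holds in check, named after its values were seen, also fell (−1.41; 0.00126).

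**Figure D5:**
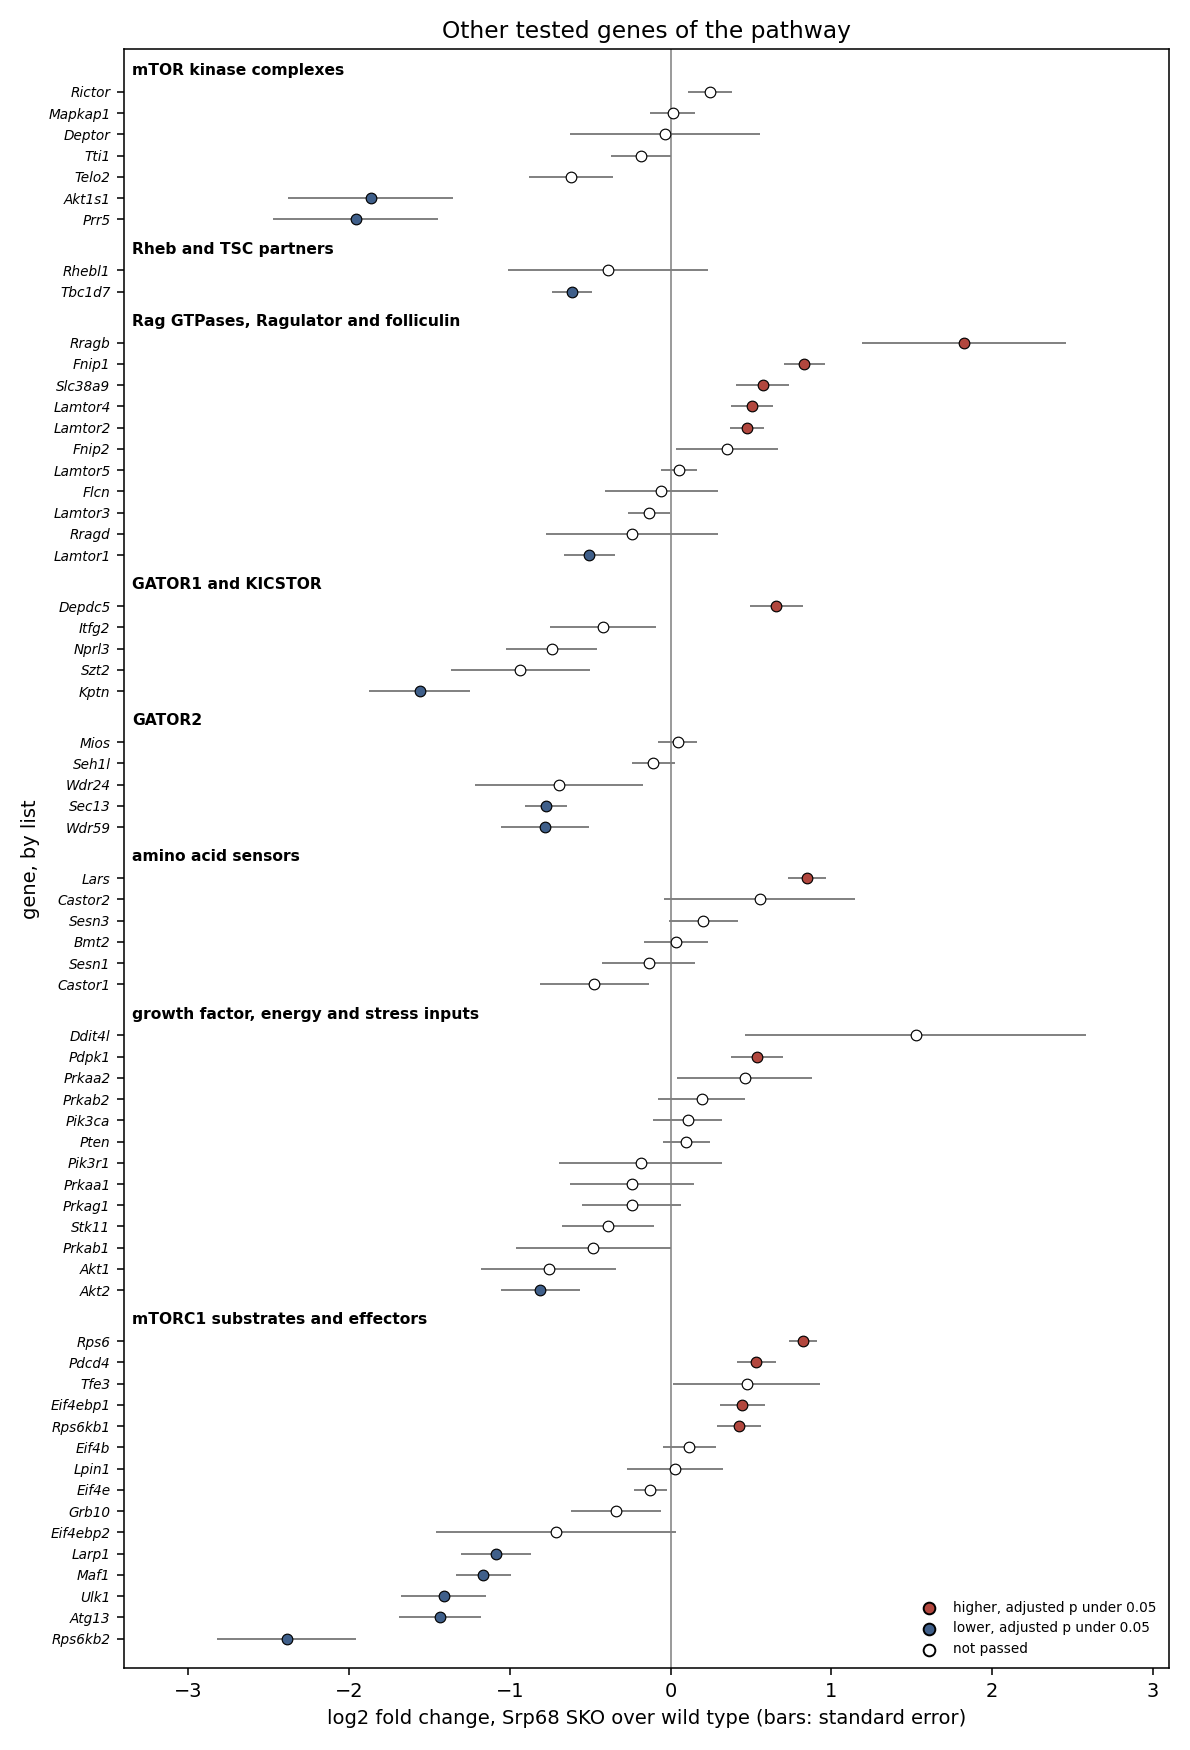
Log2 fold change of Srp68 SKO over wild type for 64 of the 65 other tested pathway genes, 1 per row and grouped by list (bars, standard error; red, higher; blue, lower; white, not passed). In the lysosomal Rag and Ragulator list 5 genes are higher and 1 lower, and among substrates and effectors 4 are higher and 5 lower. Over all tested genes 14.1% are higher and 14.4% lower.

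A list of ATF4 pathway genes, Atf4 itself among them, was read beside Sesn2. Of 10 tested genes of that list 5 were higher and 0 lower (edgeR; 5 did not pass), against 14.1% and 14.4% of all tested genes. The 5 include Asns, asparagine synthetase, and Slc3a2, an amino acid transporter chain, with log2 fold changes of 3.18 and 1.42 (adjusted p = 9.09e-07 and 5.32e-06), and Chac1, which had 0 counts in every wild type library. The list was not uniform: Ppp1r15a, which helps to end the stress response, was at 6.95 ± 1.78 CPM in SKO and 12.4 ± 2.54 CPM in wild type cells, with no overlap, and did not pass (log2 fold change −0.83, edgeR adjusted p = 0.0585, SD, n = 3 each), and the transporter gene Slc7a5 was at −0.02 (0.964). Both were named after their values were seen. So were Atf4 (log2 fold change 0.42, edgeR adjusted p = 0.0703) and Eif2ak4 (0.43; 0.282) of this list, neither of which passed. Ddit4, of the stress inputs, and Trib3, of the ATF4 list, were also named after their values were seen. Ddit4, whose product REDD1 acts on mTORC1 through the TSC complex, had 6, 9 and 12 counts in SKO and 2, 8 and 0 in wild type libraries and did not enter the test, and Trib3 was at 1.24 ± 0.947 CPM in SKO and 0.903 ± 1.24 CPM in wild type cells (edgeR adjusted p = 0.817, SD, n = 3 each). Eif4ebp1, the translation repressor that mTORC1 inactivates, also named after its values were seen, rose (134 ± 19.8 and 98.7 ± 11.9 CPM, SD, n = 3 each; log2 fold change 0.44, edgeR adjusted p = 0.0285), with its call lost with library totals (0.391) and without SKO replicate 1 (0.107) or 2 (0.134) or wild type replicate 2 (0.0662) or 3 (0.0929). Over the 6 libraries, the tested genes whose log2 CPM tracked Sesn2 most closely were S100pbp, Haus2 and Mob1a (Pearson r 0.999, 0.997 and 0.997), and those nearest to Rraga were Ifi30, Prss41 and Poldip3 (0.999, 0.998 and 0.998). The 6 points span both genotypes, so the correlations are a description with no test.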

How the data were processed

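Libraries of sorted spermatocytes (3 Srp68 SKO, 3 wild type) were compared. The submitters' processing notes name FastQC, Trim Galore 0.6.4, HISAT2 2.0.5 and the builds GRCm38 and mm10. How reads were counted, with which annotation and strand setting, was not given in the sources used here. Values are raw counts per gene as deposited, not normalized by the authors. The CKO columns of the table were taken as SKO, the series' single knockout group. Symbols, positions, exon lengths and GC content came from GENCODE vM21 (49325 of 49584 identifiers). Reads carry no molecular identifiers and strand could not be used. Poisson intervals of counts and the limits set by 3 counts cover counting error only, whereas intervals of fold changes come from the edgeR fit and include the spread between libraries.

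R 4.3.3 and edgeR 4.0.16 were used: filterByExpr with genotype as group (13474 genes), TMM scaling, and a two-sided quasi-likelihood test with genotype as the only term. Each fold change sets SKO over wild type, and CPM values are TMM-scaled. The biological coefficient of variation was 0.304. No replicate pair agreed within sampling noise (chi-square statistics of 12 to 22.2 per degree of freedom).

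The 10 genes and the lists were chosen with earlier results of these data known. Besides the 10 genes and Srp68, the text names up to 3 called genes of each list by smallest p, all genes of lists with up to 3 tested genes, and the 3 closest correlates of the steepest called increase and decrease; exceptions are stated. The 8 ratios of gene pairs were chosen after values were seen. A gene of the lists is counted but not reported here by name.

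Alternatives were DESeq2 1.42.0, its size factors alone, scaling to upper quartiles or to library totals, testing without a low-count filter or with one of 5 CPM in 3 libraries, limma-voom (limma 3.58.1), a replicate block, a loess correction (span 0.3) for GC content and length, the block and this correction together, and each library left out. Alternatives that leave out a library leave 2 in its genotype.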

Additional observations from a re-analysis of the deposited data

How the results depend on the processing

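Under every alternative run Rraga and Nprl2 stayed called lower. The count of the 10 genes called lower ran from 2 to 4. The count called higher, 2 in the main test, was 0 with library totals and 1 without a low-count filter, with the filter of 5 CPM (which drops Sesn2 and Mlst8), with the replicate block, with the GC content and length correction and with block and correction together. Leaving out a library gave 0 to 1. For the 65 other pathway genes the count called higher, 13 in the main test, was 3 with library totals and 8 with GC content and length corrected, and 7 to 11 when a library was left out; the lower count was 9 to 13 when a library was left out. The cause of these shifts was not tested, though a library left out also leaves fewer samples. Over all tested genes, 24.2% of calls were increases with library totals, in place of 49.5%.

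The log2 fold change of Rptor, −0.02 in the main test, was 0.0098 with upper-quartile scaling, 0.0224 with limma-voom, 0.0124 with the replicate block, 0.19 with the GC content and length correction and 0.24 with both; it ran from −0.2439 to 0.2046 when a library was left out. That of Tsc1, 0.02, was −0.26 with library totals and ran from −0.30 to 0.34 when a library was left out. Neither gene passed in any alternative.

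The replicate numbers were not found to pair the libraries: deviations of same-numbered libraries correlated at 0.02, −0.05 and 0.03. With the replicate block, Sesn2 no longer passed (1.41, adjusted p = 0.0514), 3 of the 10 genes were lower as before, and 1976 genes of all tested were higher and 1991 lower, in place of 1901 and 1937.

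Depth limits the low genes: of the 10 genes, Mlst8, Rraga and Sesn2 had the lowest minima, at 10, 13 and 27 counts in a library, and other named pathway genes went lower, such as Prr5 with 9.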

Other observations

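Genes that encode alternatives for the same step moved in opposite directions in a few places of the pathway; these pairs were chosen after their values were seen. The ratio of Rraga to Rragb, the genes of the interchangeable RagA and RagB, was 0.91, 1.46 and 0.49 per exon length in SKO replicates 1 to 3, against 13.8, 6.32 and 13.3 in wild type replicates 1 to 3. The Rraga transcript was thus several times the Rragb transcript in each wild type library, and above it in only 1 SKO library. These ratios rest on low counts, with Rragb at 13, 19 and 11 in wild type and Rraga at 30, 24 and 13 in SKO libraries. Rragb also passed under only 3 of the 15 alternatives that kept it. The ratio of Rps6kb1 to Rps6kb2, which encode the S6 kinases that mTORC1 phosphorylates, was 18.3, 28.9 and 44.4 in SKO and 3.24, 3.28 and 6.16 in wild type libraries. Rps6kb2 fell to 1.77 ± 0.616 CPM in SKO cells, against 9.35 ± 3.15 CPM in wild type cells (SD, n = 3 each; log2 fold change −2.39; edgeR adjusted p = 0.000927), and 23.7% of its exon length overlaps other genes. Rps6kb1 rose by less (81.6 ± 7.17 and 60.8 ± 5.88 CPM; 0.43; 0.0329), with a value of 0.05 once GC content and length were corrected (adjusted p = 0.813). Its call was also lost with library totals (0.401) and without SKO replicate 2 (0.130) or 3 (0.111) or wild type replicate 2 (0.122) or 3 (0.0543).

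Subunits of a single complex also parted. The ratio of Depdc5 to Nprl2, both of GATOR1, was 0.57, 0.585 and 1.18 in SKO and 0.231, 0.162 and 0.142 in wild type libraries. In each of these pairs the groups did not overlap. The two-sided exact permutation p was 0.1, the smallest 3 against 3 allows, and 0.133 adjusted over the 8 pairs. Each pair sets a gene above every wild type library in all SKO libraries against a gene below them. The separation of the ratios was therefore bound to follow, and these p-values add no support. The adjustment does not cover the choice of pairs by their values. Transcript GC content differed within the pairs as well, at 48.7% for Rraga and 44.0% for Rragb, 39.2% for Rps6kb1 and 55.6% for Rps6kb2, and 49.9% for Depdc5 and 53.3% for Nprl2, with the falling gene the richer in each. The part of base composition in these ratios was not tested.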
